A study of Mus musculus with 24 samples.

Results

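The genes described here are 40 genes of the lysosome, chosen by name as its hydrolases, membrane proteins and proton pump, out of 29742 genes named on the array. They were measured by 54 probes whose gene name in the scanner files matched a member. The study asked how age changes the blood response of male C57BL/6J mice to x-rays. Young mice of 2 months and old mice of 21 months received 4 Gy to the whole body or 0 Gy, and blood was drawn by cardiac puncture 24 h after exposure. Each of the 4 groups (young unirradiated, young irradiated, old unirradiated and old irradiated) held 6 mice with 1 single-colour array per mouse, and no transgene or other agent entered the design. RNA came from whole blood lysed in PAXgene solution and was depleted of globin transcripts before labelling.

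Lysosomes are acidic compartments in which proteins, glycans, lipids and nucleic acids are broken down. A proton pump, the vacuolar ATPase, acidifies the lumen, hydrolases work at that low pH, and heavily glycosylated membrane proteins shield the limiting membrane and carry or release products. Many of these genes share a promoter motif bound by TFEB and its relatives MITF and TFE3, transcription factors that mTORC1 at the lysosomal surface holds in the cytoplasm when nutrients are plentiful. In blood, lysosomes are abundant in monocytes, and in tissues in macrophages, which digest engulfed cells, while platelets and neutrophils carry related granules with some of the same proteins.

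All values are log2 signals relative to the median spot of the same array. A gene rose or fell where limma's moderated test gave p under 0.005 before adjustment and under 0.05 after Benjamini-Hochberg adjustment over the 17464 genes tested, and p-values measure the spread between mice. All 40 members passed the filter on background, and 35 also passed the filter that kept genes lying 1.5-fold from their own median in at least 5 arrays. Galns, Npc2, Tpp1, Smpd1 and Manba did not pass the latter filter. None of the 40 was saturated, and all were well above background in all mice except Npc1 and Atp6v1h, which were so in 4 and 5 of the 6 old irradiated mice. In whole blood, fewer cells of a type and less RNA per cell cannot be told apart.

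Some mice stood apart within their groups. Old irradiated replicates 4 and 6 lay far from the other mice of their group and close to each other, and their mean over the 40 members was 5.005 and 4.923 against 6.21 to 6.38 in the other 4 mice. Their mean red cell marker level was 11.4 in each, beside a group median of 7.21, and the other groups had medians from 7.87 to 9.54 for these markers of the blood's main cell. Young irradiated replicates 2, 4 and 5 and old irradiated replicates 2, 3 and 5 carried the highest tissue macrophage and hepatocyte markers. By the scaled median absolute deviation of gene-wise differences, young irradiated replicates 2 and 5 lay 0.199 apart, with the next array at 0.581. Old unirradiated replicates 1 and 6 lay 0.195 apart, with the next at 0.431. Both pairs, and old irradiated replicates 4 and 6, were averaged in an alternative fit. Whether the mice of a pair were independent was not tested. No slide and no scan day was shared by the ages, so age cannot be told apart from slide or scan day. The median signal of an array ran from 14.4 to 44.8 in young mice and from 8.66 to 33.1 in old mice.

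**Figure D1:**
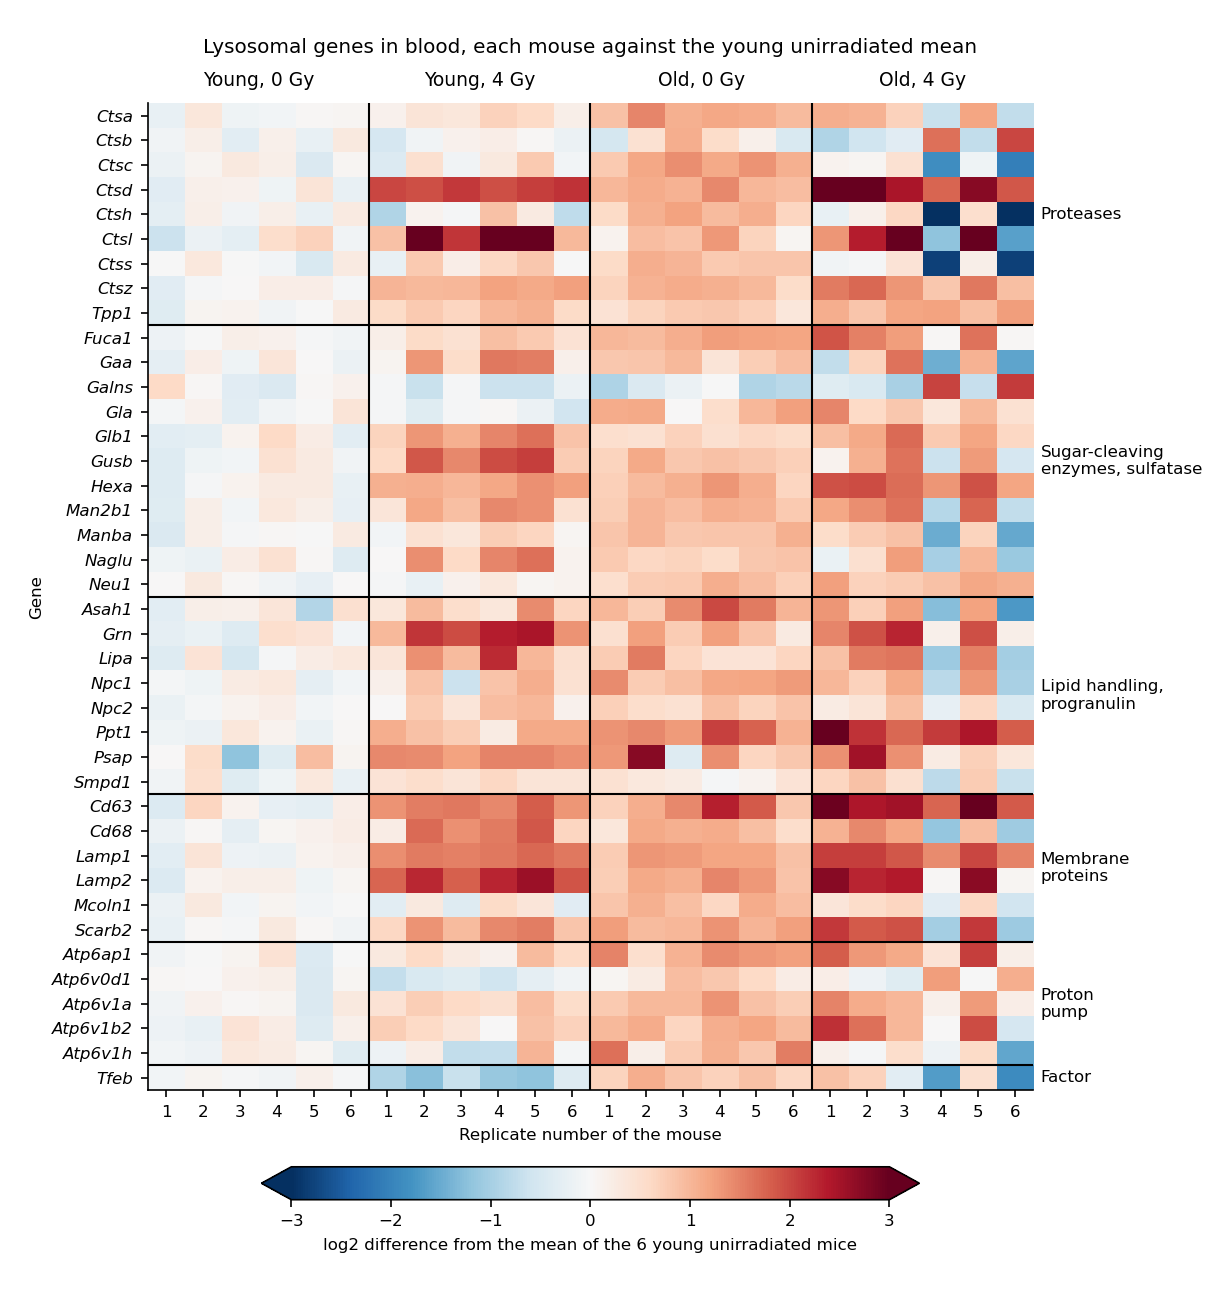
Level of each of the 40 lysosomal genes (rows, grouped by role) in each of the 24 mice (columns, grouped by age and dose), as the log2 difference from the gene's mean in the 6 young unirradiated mice, red above it and blue below. Most genes lay above that mean in the other groups, and old irradiated replicates 4 and 6 differed from the other mice of their group.

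In young mice, irradiation was followed by higher levels of many lysosomal genes. Of the 35 members tested, 18 rose and 1 fell, where 14.4% of all genes tested rose and 21.4% fell. The median change of the members was 0.87 on the log2 scale, beside -0.20 over all genes, and 33 of the 35 lay above that all-gene median. The 18 comprised 3 of 8 proteases, 5 of 9 sugar-cleaving enzymes, 4 of 6 lipid-handling genes, 5 of 6 membrane proteins and 1 of 5 proton pump subunits. In old mice 1 member rose and 1 fell, where 7.60% of all genes rose and 17.4% fell, and the median change was -0.07 beside -0.25 over all genes.

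**Figure D2:**
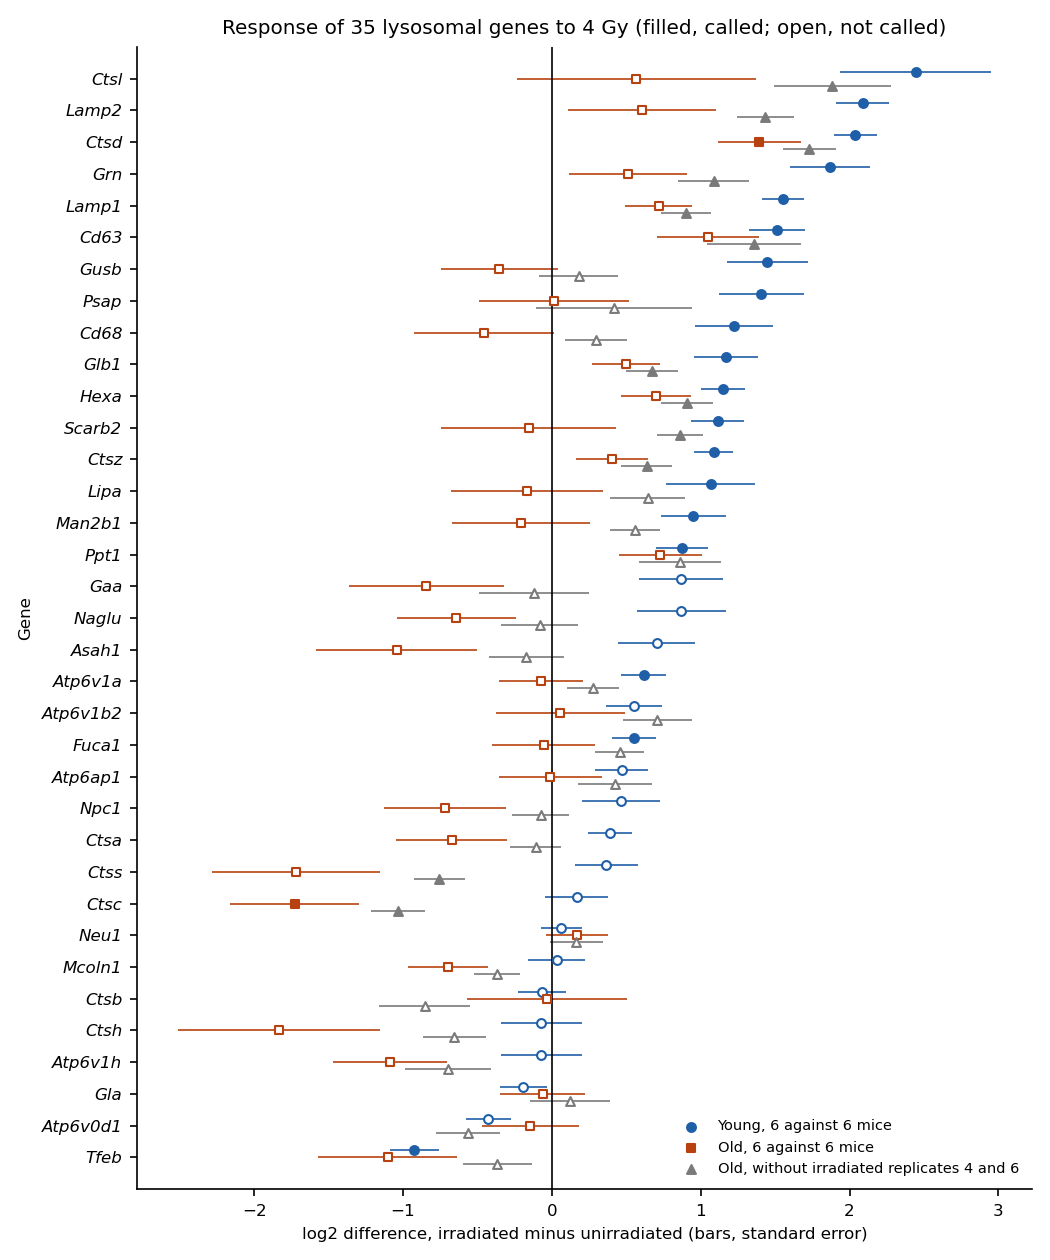
Change after irradiation (irradiated minus unirradiated, log2, with its standard error) for each lysosomal gene tested, in young mice (circles), in old mice (squares) and in old mice without irradiated replicates 4 and 6 (triangles), filled where the gene rose or fell. Ctsl, Lamp2 and Ctsd had the greatest changes in young mice, and the standard errors of most genes were wider in the squares than in the circles.

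Among the proteases, Ctsd rose in both ages by the probe with the highest mean. It encodes cathepsin D, the main aspartic protease of the lysosome. Its lowest, median and highest values were 7.46, 7.80 and 8.19 in young unirradiated mice and 9.72, 9.84 and 9.98 in young irradiated mice. The irradiated mice lay in a narrow band above all unirradiated mice. The change was 2.04 ± 0.15 (SE), or 4.11-fold, with a limma adjusted p of 1.03e-06. The two-sided exact permutation test gave p = 0.00216, the smallest that the 924 splits of 6 against 6 allow. Old mice had 8.72, 8.82 and 9.25 without irradiation and 9.55, 10.39 and 10.88 after it, again without overlap. The change in old mice was 1.39 ± 0.28, or 2.63-fold, with a limma adjusted p of 0.00291 and the same exact p. The other Ctsd probe passed in young mice at 2.18 ± 0.39 but not in old mice, where it gave 1.23 ± 0.41 with an adjusted p of 0.0325.

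Ctsl encodes cathepsin L, a cysteine endopeptidase of broad specificity. In young unirradiated mice its lowest, median and highest values were 3.09, 3.59 and 4.41, and in young irradiated mice 4.62, 6.51 and 7.41. The irradiated mice spread widely but all lay above the unirradiated ones. The change of 2.45 ± 0.51, or 5.45-fold, was the greatest among the members tested in young mice, with a limma adjusted p of 0.00169. Old mice had 3.79, 4.49 and 5.03 without irradiation and 2.11, 5.56 and 7.07 after it. Old irradiated replicates 4 and 6, at 2.51 and 2.11, lay below every unirradiated old mouse and the other 4 lay at or above 5.04. With all 6 mice the change in old mice was 0.57 ± 0.80 with an adjusted p of 0.602.

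Ctsc, which encodes dipeptidyl peptidase I and activates the granule serine proteases of leukocytes, fell in old mice. Ctsc had lowest, median and highest values of 5.94, 6.30 and 6.53 in old unirradiated mice and 3.08, 5.10 and 5.60 in old irradiated mice. The groups did not overlap. The change was -1.73 ± 0.43 with a limma adjusted p of 0.00874. In young mice the values were 4.71, 5.21 and 5.44 without irradiation and 4.74, 5.26 and 5.94 after it, which overlap, and the change was 0.17 ± 0.21. The other Ctsc probe gave -0.16 in young and -1.11 ± 0.39 in old mice, where its adjusted p of 0.0416 missed the threshold on unadjusted p, so the fall rests on 1 probe.

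Ctsh encodes cathepsin H, an aminopeptidase. In old unirradiated mice its lowest, median and highest values were 8.70, 9.13 and 9.33, and in old irradiated mice 4.81, 8.09 and 8.75. The ranges met at their edge, and the change of -1.83 ± 0.68 had a limma adjusted p of 0.0508. In young mice the values were 7.82, 8.15 and 8.39 without irradiation and 7.22, 8.16 and 9.01 after it, a change of -0.07 ± 0.27. Ctss, the cathepsin S that trims invariant chain from MHC class II molecules in antigen-presenting cells, changed by -1.72 ± 0.56 in old mice with an adjusted p of 0.0305, which missed the threshold on unadjusted p. Ctsz, a carboxypeptidase, rose by 1.09 ± 0.13 in young mice. Ctsa, the protective protein that stabilises lysosomal beta-galactosidase and sialidase, changed by 0.39 and Ctsb, the abundant cathepsin B, by -0.07, and neither passed. The other Ctsa probe gave -0.12 in young mice, the opposite direction. In old mice the chosen Ctsa probe gave -0.67 and the other -1.45, and neither passed. Tpp1, a tripeptidyl peptidase, was outside the genes tested but rose by 0.77 ± 0.15 in young mice when the 1.5-fold filter was not applied (adjusted p = 0.00103, limma).

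**Figure D3:**
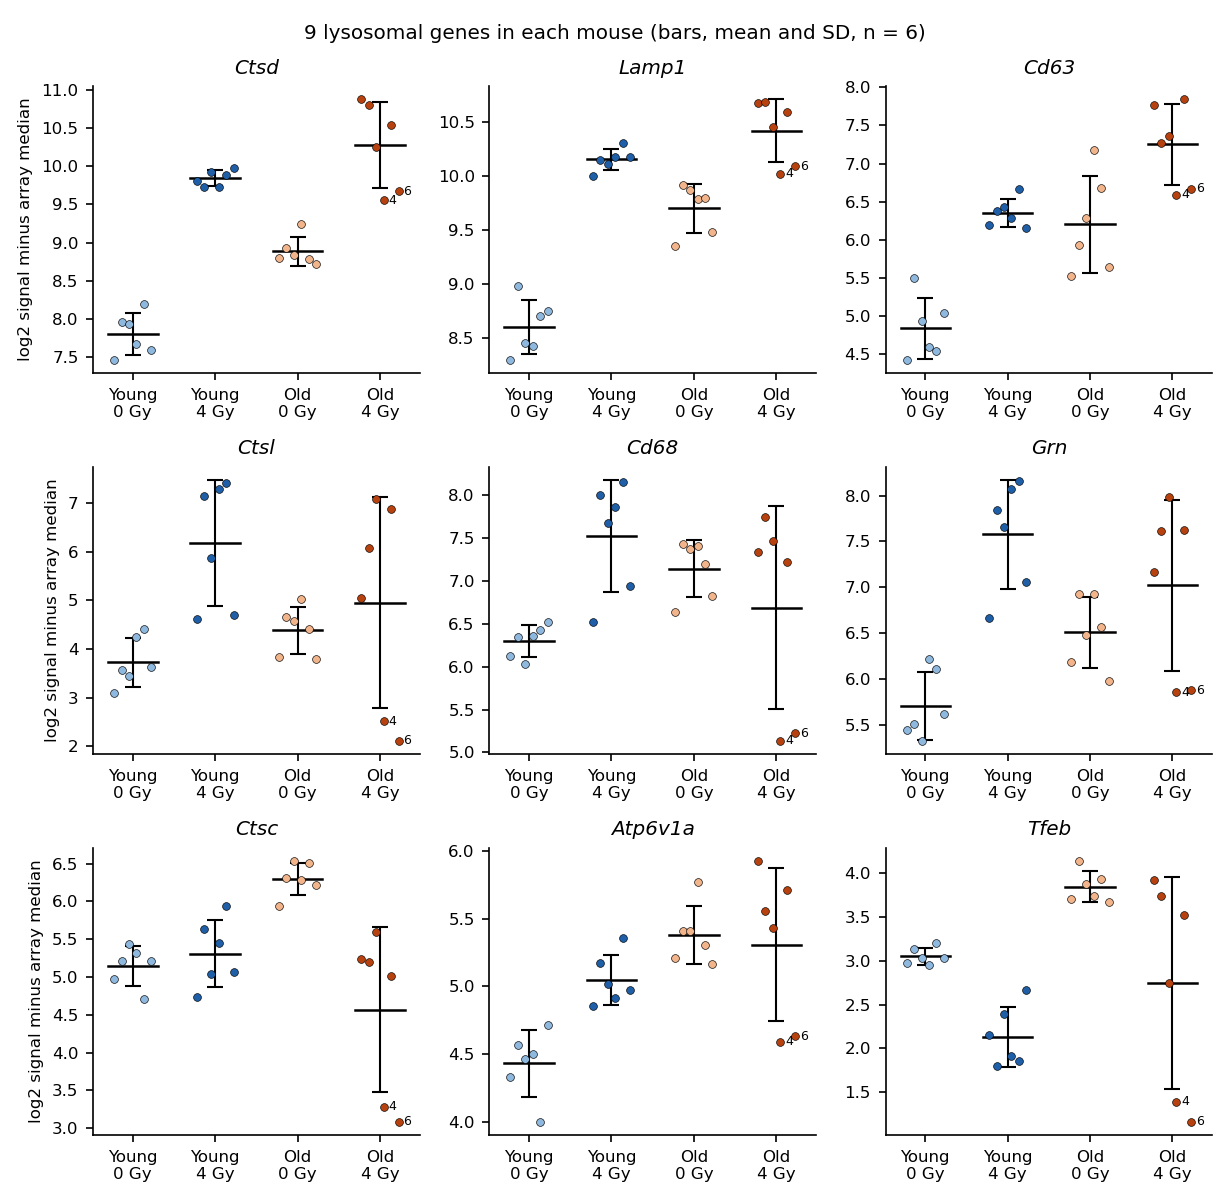
Log2 level of 9 lysosomal genes in each mouse (points) of the 4 groups, with the mean and standard deviation. Ctsd and Lamp1 separated irradiated from unirradiated mice at both ages. Ctsl, Grn, Cd63, Atp6v1a and Tfeb did so for the young groups alone, and Ctsc for the old groups alone. Old irradiated replicates 4 and 6 are marked by number.

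Of the enzymes that cleave sugars, Gusb, Glb1, Hexa, Man2b1 and Fuca1 rose in young mice. Gusb encodes beta-glucuronidase, which acts on glycosaminoglycans. Its lowest, median and highest values were 3.87, 4.16 and 4.70 without irradiation and 4.85, 5.91 and 6.32 after it. All irradiated young mice lay above all unirradiated ones, and the change was 1.45 ± 0.27, or 2.73-fold, with a limma adjusted p of 0.000867. The other Gusb probe gave 0.64. Old mice went from 4.93, 5.07 and 5.39 to 3.61, 4.83 and 5.89, which overlap, with a change of -0.35 ± 0.39.

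Glb1 encodes beta-galactosidase, whose activity is used as a stain for senescent cells. In young mice its lowest, median and highest values were 3.43, 3.67 and 4.35 without irradiation and 4.41, 4.95 and 5.41 after it. The groups did not overlap, and the change was 1.17 ± 0.22 with a limma adjusted p of 0.000781. Glb1 in old mice stood at 4.22, 4.29 and 4.45 without irradiation and 4.37, 4.77 and 5.45 after it. The old groups overlapped, and the change of 0.50 ± 0.23 had an adjusted p of 0.108.

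Hexa, the alpha subunit of beta-hexosaminidase, had lowest, median and highest values of 5.72, 6.13 and 6.37 in young unirradiated mice and 7.11, 7.22 and 7.46 in young irradiated mice. The groups did not overlap, and the change was 1.15 ± 0.15 with a limma adjusted p of 6.4e-05. For Hexa, old mice had 6.74, 7.11 and 7.42 without irradiation and 7.28, 7.90 and 8.07 after it. The change there was 0.70 ± 0.24 with an adjusted p of 0.0346, which missed the threshold on unadjusted p.

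Gaa, the acid alpha-glucosidase that degrades glycogen, had values of 4.85, 5.05 and 5.48 in young unirradiated mice and 5.18, 6.06 and 6.68 in young irradiated mice. The groups overlapped and the change of 0.87 ± 0.28, with an adjusted p of 0.0216 by limma, did not pass. In old mice its values of 5.49, 5.93 and 6.08 without irradiation and 3.54, 5.09 and 6.74 after it overlapped, with a change of -0.84 ± 0.52. Man2b1, a mannosidase, rose by 0.95 ± 0.22 and Fuca1, a fucosidase, by 0.55 ± 0.15 in young mice. Naglu, which acts on heparan sulfate, changed by 0.87 without passing, as did Gla, the alpha-galactosidase of globotriaosylceramide breakdown, at -0.19, and Neu1, a sialidase, at 0.06. Without the 1.5-fold filter, the sulfatase Galns changed by -0.36 and the mannosidase Manba by 0.35 in young mice, and neither passed.

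Of the genes that handle lipids, Grn, Psap, Lipa and Ppt1 rose in young mice. Grn encodes progranulin, which is cleaved into granulins in the lysosome. Grn had lowest, median and highest values of 5.33, 5.56 and 6.22 without irradiation and 6.67, 7.75 and 8.16 after it. The groups did not overlap, and the change was 1.87 ± 0.27, or 3.66-fold, with a limma adjusted p of 0.000151. The old values of 5.97, 6.52 and 6.93 without irradiation and 5.85, 7.39 and 7.99 after it overlapped, with a change of 0.51 ± 0.40.

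Psap encodes prosaposin, the precursor of the saposins that present sphingolipids to their hydrolases. Its lowest, median and highest values in young mice were 5.02, 6.26 and 7.15 without irradiation and 7.44, 7.66 and 7.72 after it. The irradiated mice lay close together above the unirradiated ones, and the change was 1.41 ± 0.29 with a limma adjusted p of 0.0015. In old mice both groups were wide, at 5.83, 7.28 and 8.95 without irradiation and 6.48, 7.26 and 8.75 after it, with a change of 0.02 ± 0.50.

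Ppt1 removes palmitate from proteins. Its lowest, median and highest values in young mice were 1.55, 1.69 and 2.09 without irradiation and 1.99, 2.72 and 2.89 after it, which overlapped slightly. The change was 0.87 ± 0.18 with a limma adjusted p of 0.00146. Old mice had Ppt1 at 2.78, 3.14 and 3.79 without irradiation and 3.47, 3.88 and 4.80 after it, a change of 0.73 ± 0.28 with an adjusted p of 0.0578. Asah1, the acid ceramidase, moved from 2.24, 3.29 and 3.61 to 3.46, 3.71 and 4.53 in young mice, a change of 0.70 ± 0.26 that did not pass. The other Asah1 probe gave 1.03 ± 0.26 with a limma adjusted p of 0.007, which passed, so the probes disagreed on the call. In old mice Asah1 had values of 3.87, 4.35 and 5.11 without irradiation and 1.40, 4.07 and 4.45 after it, and its change of -1.04 ± 0.54 did not pass either. Lipa, the acid lipase of cholesteryl esters, rose by 1.07 ± 0.30 in young mice. The cholesterol exporter Npc1 changed by 0.46 without passing, and without the 1.5-fold filter its partner Npc2 changed by 0.53 and the acid sphingomyelinase Smpd1 by 0.46, also without passing.

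The membrane proteins held the highest share of rises in young mice, 5 of 6. Lamp1 and Lamp2 are the major glycoproteins of the lysosomal membrane. Lamp1 had lowest, median and highest values of 8.29, 8.57 and 8.98 in young unirradiated mice and 10.01, 10.16 and 10.31 in young irradiated mice. The groups were clearly separate, and the change was 1.56 ± 0.14, or 2.94-fold, with a limma adjusted p of 6.05e-06. Lamp1 in old mice stood at 9.35, 9.79 and 9.92 without irradiation and 10.02, 10.52 and 10.68 after it. The old groups did not overlap, and the exact permutation test gave p = 0.00216. The change of 0.72 ± 0.23 had a limma adjusted p of 0.025 but missed the threshold on unadjusted p.

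Lamp2 had lowest, median and highest values of 4.45, 4.95 and 5.04 in young unirradiated mice and 6.61, 6.93 and 7.41 in young irradiated mice. The gap between the groups was wider than either range, and the change was 2.09 ± 0.18, or 4.25-fold, with a limma adjusted p of 3.94e-06. Old mice ran at 5.58, 5.95 and 6.32 without irradiation and 4.89, 7.18 and 7.58 after it. The groups overlapped, and the change was 0.61 ± 0.50 with an adjusted p of 0.362. The other Lamp2 probe gave 1.40 ± 0.30 in old mice with an adjusted p of 0.00429, so the probes disagreed on the call.

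Cd63, a tetraspanin of late endosomes and of platelet granules, had values of 4.42, 4.77 and 5.49 in young unirradiated mice and 6.16, 6.33 and 6.66 in young irradiated mice. The groups did not overlap, and the change was 1.51 ± 0.19, or 2.85-fold, with a limma adjusted p of 5.37e-05. In old mice Cd63 went from 5.52, 6.10 and 7.17 to 6.59, 7.32 and 7.85, a change of 1.05 ± 0.34 with an adjusted p of 0.0308 that missed the threshold on unadjusted p. The platelet markers were also higher in irradiated mice, as given with the other marker lists. The paper's blood counts showed no appreciable change in platelets after irradiation at either age. The part of platelets in the Cd63 change was not tested.

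Cd68, the macrosialin of monocytes and macrophages, had values of 6.03, 6.35 and 6.52 in young unirradiated mice and 6.52, 7.77 and 8.15 in young irradiated mice. The lowest irradiated mouse sat level with the highest unirradiated one, and the change was 1.23 ± 0.26 with a limma adjusted p of 0.00212. Its old values of 6.64, 7.28 and 7.43 without irradiation and 5.13, 7.28 and 7.74 after it overlapped fully, with a change of -0.46 ± 0.47. Scarb2, the receptor that carries glucocerebrosidase to the lysosome, rose by 1.12 ± 0.18 in young mice. Mcoln1, a calcium channel of the lysosomal membrane, was level in young mice, with values of 4.23, 4.37 and 4.70 without irradiation and 4.02, 4.40 and 4.99 after it. In old mice it went from 5.04, 5.32 and 5.52 to 3.84, 4.86 and 5.06, a change of -0.70 ± 0.27 with an adjusted p of 0.0572.

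Of the 5 proton pump subunits, 1 rose in young mice and none in old mice. This was Atp6v1a, the catalytic subunit that hydrolyses ATP. Atp6v1a had lowest, median and highest values of 4.00, 4.49 and 4.72 without irradiation and 4.86, 4.999 and 5.36 after it. The groups did not overlap, and the change was 0.62 ± 0.15 with a limma adjusted p of 0.0046. In old mice its values were 5.17, 5.36 and 5.77 without irradiation and 4.59, 5.49 and 5.92 after it, a change of -0.07 ± 0.28.

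The other pump subunits did not pass in either age. Atp6v1b2, a further subunit of the ATP-hydrolysing head, had values of 0.84, 1.22 and 1.64 in young unirradiated mice and 1.24, 1.87 and 2.11 in young irradiated mice, and changed by 0.55 ± 0.19. In old mice Atp6v1b2 went from 1.88, 2.26 and 2.41 to 0.72, 2.55 and 3.43, with a change of 0.06 ± 0.43. Atp6v1h, a regulatory subunit of the head, went from 1.26, 1.61 and 1.93 to 0.89, 1.52 and 2.65 in young mice. These ranges overlapped. In old mice Atp6v1h went from 1.79, 2.57 and 3.28 to 0.06, 1.68 and 2.20, with a change of -1.09 ± 0.38 and a limma adjusted p of 0.0416 that missed the threshold on unadjusted p. Atp6v0d1, part of the membrane sector, went from 5.46, 5.93 and 6.07 to 5.16, 5.47 and 5.77 in young mice, a change of -0.43 ± 0.15. In old mice its values of 5.94, 6.30 and 6.81 without irradiation and 5.52, 5.97 and 7.13 after it overlapped. Atp6ap1, an accessory protein of the pump, changed by 0.47 ± 0.18 in young mice.

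Tfeb, which encodes a transcription factor that controls lysosomal genes, was the member that fell in young mice. Its lowest, median and highest values were 2.95, 3.03 and 3.20 in young unirradiated mice and 1.80, 2.04 and 2.66 in young irradiated mice. Every irradiated young mouse lay below every unirradiated one, and the change was -0.92 ± 0.16 with a limma adjusted p of 0.000564. Tfeb in old mice stood at 3.67, 3.82 and 4.14 without irradiation and 1.16, 3.14 and 3.92 after it. The old groups overlapped, and the change of -1.10 ± 0.47 had an adjusted p of 0.0831. These are transcript levels, and TFEB activity also depends on phosphorylation, which was not measured.

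The promoters of the members were searched for the letters CACGTG, the core of the motif bound by TFEB and its relatives, in the 300 bases from 250 before to 50 after the start of each gene (RefSeq, GRCm38.p6). CACGTG reads the same on both strands. A promoter was given for 33 of the 40 members, and 10 of them (30.3%) held CACGTG, against 1957 of 27025 promoters overall (7.24%). The longer TCACGTGA, which contains CACGTG, occurred in 5 of the 33 (15.2%) and in 272 of all promoters (1.01%). Windows around the motif are printed 5′ to 3′ on the gene's own strand for the members whose values are given in full and that hold it, with each CACGTG in capitals. For Ctsd and Mcoln1, which hold CACGTG at 2 places, the window shows 1 of them. Lamp1 lies at chr8:13159089-13159162 on the plus strand, Ctsd at chr7:142387909-142387936 on the minus strand, Ctsl at chr13:64370740-64370767 on the minus strand, Glb1 at chr9:114401019-114401046 on the plus strand, Gaa at chr11:119267812-119267839 on the plus strand, Mcoln1 at chr8:3500463-3500490 on the plus strand, Atp6v1a at chr16:44139374-44139401 on the minus strand and Atp6v0d1 at chr8:105566051-105566078 on the minus strand.
Lamp1: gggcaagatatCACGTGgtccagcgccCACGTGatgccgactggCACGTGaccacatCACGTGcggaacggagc
Ctsd: cgcccgcgtctCACGTGacccgttgagg
Ctsl: gcgttagaagcCACGTGctgatctaaat
Glb1: tgcttctgagtCACGTGgcctacagagg
Gaa: ttctgtgcgatCACGTGtttgactctga
Mcoln1: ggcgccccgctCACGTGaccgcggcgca
Atp6v1a: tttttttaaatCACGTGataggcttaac
Atp6v0d1: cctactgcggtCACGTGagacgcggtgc

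The Lamp1 promoter held CACGTG at 4 places within the printed window. Of the 10 members tested whose promoter held CACGTG, 5 rose in young mice with a median change of 0.87, and of the 19 whose promoter did not, 13 rose and 1 fell with a median of 1.07. In old mice 1 of the 10 rose and 1 of the 19 fell. A match in these letters is a description of the promoter and not a measurement of binding.

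In old mice the response depended on which irradiated mice were counted, and both leave-outs were chosen after seeing the data. Without old irradiated replicates 4 and 6, 10 members rose and 2 fell, where 11.9% of all genes rose and 22.8% fell, and the members' median change was 0.30 beside -0.30 over all genes. The 10 were Cd63, Ctsd, Ctsl, Ctsz, Glb1, Grn, Hexa, Lamp1, Lamp2 and Scarb2, and all 10 were among the 18 that rose in young mice. Among them were Ctsl at 1.89 ± 0.39, Ctsd at 1.73 ± 0.18, Lamp2 at 1.43 ± 0.19, Cd63 at 1.36 ± 0.32 and Grn at 1.09 ± 0.24. Ctsc and Ctss fell, at -1.03 ± 0.18 and -0.76 ± 0.17. Without old irradiated replicates 2, 3 and 5 instead, no member rose and 7 fell, where 16.0% of all genes rose and 24.5% fell, and the median was -0.46 beside -0.20. Those 7 were Ctsc, Ctsh, Ctss, Gaa, Gusb, Mcoln1 and Naglu. Ctsc was the member that fell in all 3 of these sets of mice.

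Replicates 4 and 6 were not low for every member. Ctsb was 11.05 and 11.41 in them against 8.51 to 9.07 in the other old irradiated mice, and Galns 8.52 and 8.59 against 5.52 to 6.13. The red cell markers stood at 11.4 in both, as given above, and their part in these values was not tested. In young mice, irradiated replicates 2, 4 and 5 were left out, also after seeing the data. Without them, 12 members rose and 1 fell, where 14.4% of all genes rose and 18.9% fell. All 12 were among the 18, which came from a set of mice that holds these. The median change of the 35 members was then 0.52 beside -0.10 over all genes.

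Markers of other cell types moved with dose, and their part in the lysosomal changes was not tested. The 13 tissue macrophage markers used, of 16 listed, had a lowest, median and highest mean level of 1.21, 1.99 and 3.78 in young unirradiated mice and 4.57, 5.66 and 6.16 in young irradiated mice, which did not overlap. In old mice the values were 1.12, 2.59 and 3.87 without irradiation and 1.49, 3.79 and 6.03 after it. Their summed signal ran from 6.27 to 8.94 on the log2 scale in young unirradiated mice, 9.73 to 11.6 in young irradiated mice, 6.42 to 8.35 in old unirradiated mice and 6.96 to 11.1 in old irradiated mice. The 10 monocyte markers stood at 4.94, 5.17 and 5.54 in young unirradiated mice and 5.74, 6.09 and 6.27 in young irradiated mice, and at 5.98, 6.51 and 6.88 and then 4.30, 6.09 and 6.78 in old mice. Their summed signal covered 9.69 to 10.3, 10.4 to 11.2, 10.4 to 11.3 and 10.8 to 11.8 in the same order of groups. The macrophage and monocyte markers thus separated the young groups fully and did not separate the old ones.

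The 7 hepatocyte markers used, of 10 listed, had a lowest, median and highest mean level of 0.98, 2.37 and 5.62 in young unirradiated mice, 1.89, 5.39 and 9.34 in young irradiated mice, -0.68, -0.12 and 0.36 in old unirradiated mice and 1.40, 5.69 and 8.58 in old irradiated mice. Alb, the plasma protein of hepatocytes, was well above background in 4, 5, 0 and 5 mice of the 4 groups. The summed signal of the hepatocyte list ran from 4.65 to 10.6, 5.23 to 14.2, 2.67 to 4.09 and 4.74 to 13.4. The 8 platelet markers were higher after irradiation in both ages without overlap, going from 7.75, 8.31 and 8.67 to 9.01, 10.2 and 10.8 in young mice and from 8.91, 9.31 and 9.87 to 10.7, 11.2 and 11.4 in old mice. Their summed signal ran from 11.97 to 12.8, 13.3 to 14.7, 12.8 to 13.8 and 14.3 to 15.5. These are transcript levels relative to the array median, and the paper's platelet counts did not change appreciably with irradiation. The 12 neutrophil markers stood at 3.82, 4.29 and 4.82, then 4.74, 5.20 and 5.57 in young mice, and at 5.34, 5.68 and 7.28, then 5.77, 6.34 and 8.03 in old mice, with summed signals of 10.7 to 11.9, 12.1 to 13.5, 12.5 to 14.1 and 12.5 to 15.1.

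The 9 B cell markers were lower after irradiation at both ages without overlap, with medians of 5.85 and 3.31 in young mice and 6.40 and 2.64 in old mice. Their summed signal ran from 10.7 to 10.98, 7.72 to 9.21, 10.9 to 11.9 and 6.16 to 9.78. The 10 T cell markers went from 6.11, 6.35 and 6.47 to 3.81, 4.63 and 5.57 in young mice, without overlap, and from 5.70, 6.08 and 7.34 to 5.26, 5.71 and 6.04 in old mice, with overlap. Their summed signal ran from 9.71 to 10.3, 8.50 to 9.70, 9.52 to 11.3 and 9.07 to 10.3. The 5 endothelial markers used, of 8 listed, were higher after irradiation at both ages without overlap, going from 3.33, 3.68 and 3.78 to 4.51, 4.89 and 5.36 in young mice and from 3.46, 3.80 and 4.16 to 5.05, 5.56 and 6.09 in old mice. Their summed signal ran from 9.19 to 10.2, 10.2 to 11.49, 9.83 to 10.7 and 11.1 to 12.2. The mean levels of the NK cell and dendritic cell markers overlapped between irradiated and unirradiated mice at both ages. The summed NK cell signal did not overlap in young mice, at 8.03 to 9.43 without irradiation and 9.48 to 11.2 after it. In old mice it overlapped, at 7.40 to 9.56 and 8.35 to 10.3.

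**Figure D4:**
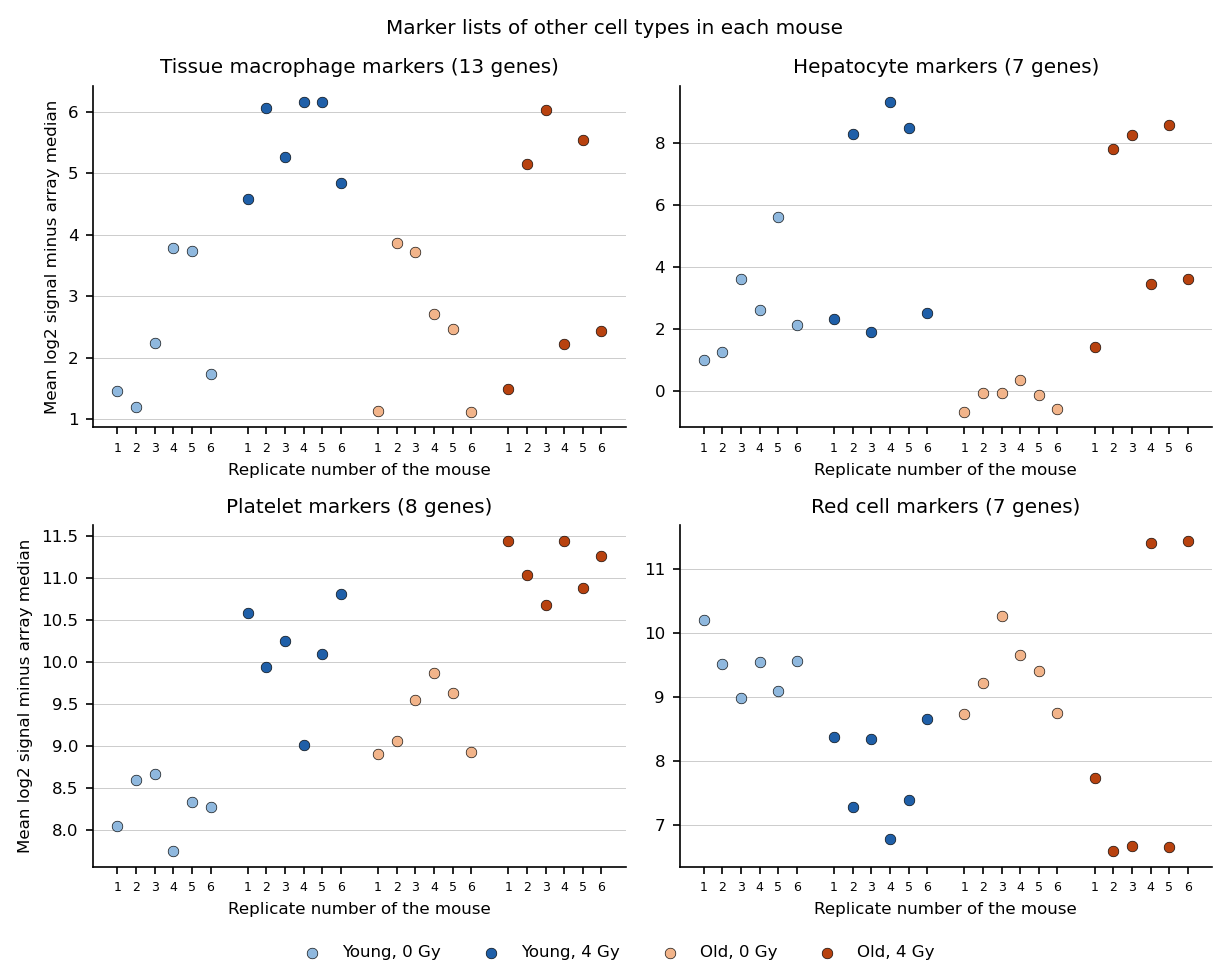
Mean log2 level of the tissue macrophage, hepatocyte, platelet and red cell marker genes in each mouse (points) of the 4 groups. Tissue macrophage and platelet markers were higher in all young irradiated than in all young unirradiated mice, hepatocyte markers varied widely between irradiated mice, and red cell markers were highest in old irradiated replicates 4 and 6.

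Relative to the array median, most lysosomal genes were higher in old than in young unirradiated mice. Of the 35 members tested, 29 rose with age and none fell, where 48.3% of all genes rose and 15.5% fell. The median difference, old minus young, was 0.93 beside 0.63 over all genes, and all 35 were higher in old mice on the median scale. Ppt1 had the greatest difference at 1.49 ± 0.18 with a limma adjusted p of 1.67e-05, followed by Cd63 at 1.37 ± 0.28, Asah1 at 1.29 ± 0.26, Atp6ap1 at 1.16 ± 0.19 and Ctsc at 1.15 ± 0.15. Tfeb was 0.80 ± 0.12 higher in old mice.

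The age difference depended on how the arrays were scaled. Over all 18729 genes that passed the background filter, the median difference was 0.61 with the array median, 0.09 with the 75th percentile, 0.14 after quantile normalization and 0.05 with the median over probes above background on all arrays. The median over the 40 members was 0.91, 0.39, 0.31 and 0.35 under the same scalings, above the all-gene median in each. Of all genes called by age among those tested, the share higher in old mice was 75.7%, 27.9%, 42.5% and 23.8%. Of the 40 members, 7 passed the test as higher in old mice under all 4 scalings (Ctsa, Ctsc, Fuca1, Lamp1, Npc1, Ppt1 and Scarb2), 26 passed under some of them and 6 under none, and Galns passed as lower under 3. In direction alone, 34 of the 40 lay above 0 under all 4. The share of all genes that passed under all 4 scalings was not computed, for the age difference or for either response. These counts are therefore not set against a share over all genes.

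Under these scalings the young response changed little, with 18 members rising and Tfeb falling under all 4 and a median over the 40 members between 0.66 and 0.70. With normexp background correction, however, 7 members passed in young mice in place of 19. For the old response no member rose under all 4, 8 did under some, and Ctsc fell under all 4. The median over the 40 members in old mice was -0.07 with the array median and 0.23, 0.00076 and 0.27 with the others, while the all-gene median was -0.24, 0.06, -0.17 and 0.09. The members' median thus lay above that of all genes under each scaling. Of all genes called in old mice, 30.4% rose with the array median, 49.0% with the 75th percentile, 36.9% after quantile normalization and 54.2% with the probes above background.

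**Figure D5:**
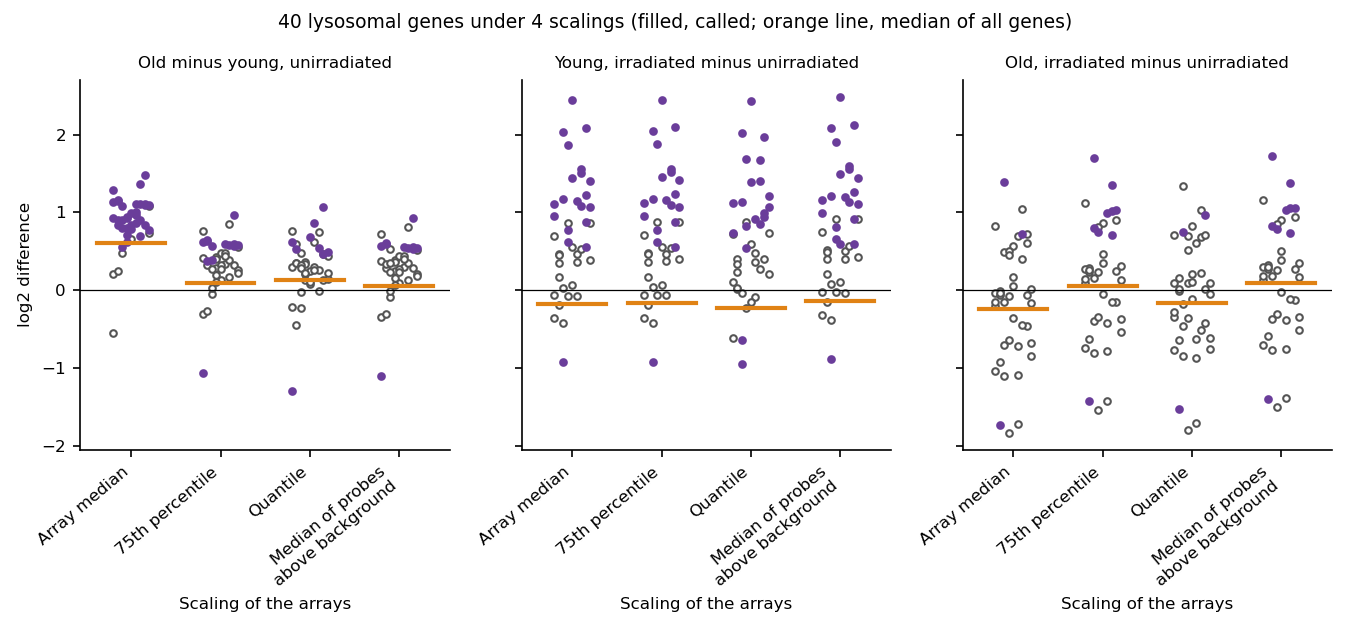
Log2 difference of each of the 40 lysosomal genes (points, filled where the gene rose or fell) under each of 4 array scalings, for the age difference in unirradiated mice and the young and old responses, with the median of all genes as a line. The points and the line shift together with the scaling for the age difference and the old response and stay in place for the young response.

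In irradiated mice few members passed the test for a difference by age. In simulated data this comparison recovered 4% of genes shifted by 1 on the log2 scale, so equal levels are not shown. Of the 35 members 1 (Ppt1, 1.34 ± 0.28, limma adjusted p of 0.0365) passed as higher in old mice and none as lower, where 1.40% of all genes passed as higher and 0.601% as lower. In direction 17 members were higher and 18 lower, and 6 had an unadjusted p below 0.05, as did 21.4% of all genes. With the 1.5-fold filter, the Ppt1 call was lost with each of the 3 other scalings, with normexp and with the replicate block. Without that filter, Ppt1 also passed with the median over probes above background. No member passed when any of 9 of the 12 mice was left out. The members' median was -0.01 beside 0.20 over all genes. Without old irradiated replicates 4 and 6, 11 members passed as higher and none as lower, where 20.3% of all genes passed as higher and 8.23% as lower, with a median of 0.45 beside 0.34. These included Ppt1 at 1.47 ± 0.28, Cd63 at 1.21 ± 0.18, Gla at 1.15 ± 0.21, Fuca1 at 1.02 ± 0.20 and Ctsd at 0.78 ± 0.17.

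Whether the response itself differed with age was tested by the interaction, old response minus young response, over all 24 arrays. No member passed, nor did any gene (0% called), while 21 of the 35 members had an unadjusted p below 0.05, as did 23.6% of all genes. The difference was below 0 for 31 of the 35, with a median of -1.01 beside -0.24 over all genes. It was -1.89 ± 0.49 for Ctsc, -2.09 ± 0.63 for Ctss, -1.80 ± 0.48 for Gusb and -0.84 ± 0.24 for Lamp1, with limma adjusted p of 0.11, 0.118, 0.11 and 0.117. Without old irradiated replicates 4 and 6 no member passed, where 0.0458% of all genes were called higher and 0.103% lower, and the median was -0.49 beside -0.13. The result rested in part on old irradiated replicate 3, since without that mouse Ctsc, Ctss, Gaa, Gusb, Lamp1 and Naglu passed with differences from -2.34 to -0.84, where 1.48% of all genes passed as higher and 4.5% as lower. The old response and the young response use different mice, whereas each shares its unirradiated or irradiated mice with the age comparisons.

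Slides holding both treatments were few, 1 in each age, with 2 mice of each dose. On the young slide 33 of the 35 members had the sign of the full comparison, with a median difference of 0.79 beside -0.23 over all genes. On the old slide 26 of 35 did, with a median of 0.37 beside -0.11. These mice are also part of the full comparison, so agreement in sign was partly fixed in advance. The share of all genes with the same sign was not computed. With 2 mice a group these are values without a test. With slide as a fixed block in the limma fit, 7 members passed in young mice in place of 19, and 1 in old mice in place of 2.

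Beyond the 40 members, 72 further genes of the lysosome were listed and 60 were tested. In young mice 21 rose and 7 fell, where 14.4% of all genes rose and 21.4% fell, with a median of 0.51 beside -0.20 over all genes. In old mice 4 rose and 8 fell, near the 7.60% and 17.4% of all genes, with a median of -0.27 beside -0.25. The other pump subunits rose in 5 of 9 cases in young mice and 2 of 9 in old mice, with none falling. Atp6v0a2, of the membrane sector, rose by 1.28 ± 0.21 in young and 0.99 ± 0.24 in old mice. The other hydrolases were mixed in young mice, 6 of 24 rising and 4 falling, and 3 of 24 fell in old mice with none rising.

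Several hydrolases of that list fell. Ctso, a further cysteine cathepsin, fell by 1.06 ± 0.23 in young mice (limma adjusted p of 0.00206) and by 2.36 ± 0.30 in old mice (adjusted p of 0.000319), and Acp5, the acid phosphatase of macrophages and osteoclasts, by 1.31 and 1.64. Hgsnat, which acetylates heparan sulfate at the lysosomal membrane, rose by 1.84 ± 0.28 in young mice and changed by 0.29 ± 0.53 in old mice.

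Of the genes that sort enzymes to the lysosome, Sort1, a sorting receptor, rose by 1.71 ± 0.23 in young and 1.23 ± 0.27 in old mice, and its direction in young mice turned in the deposited series table. Gnptg, a subunit of the enzyme that starts the mannose 6-phosphate tag, rose by 1.33 ± 0.17 and 0.97 ± 0.21. Gnptab, the catalytic part of the same enzyme, fell by 0.66 ± 0.15 and 1.86 ± 0.36. In the list on control of lysosomal genes and mTORC1, 2 of 8 rose and 1 fell in young mice. Mitf, a relative of Tfeb, rose by 2.03 ± 0.30 and Mtor, the kinase of mTORC1, fell by 1.09 ± 0.22, while in old mice they changed by 0.37 ± 0.60 and -0.64 ± 0.45. In unirradiated mice 45 of the 60 rose with age and none fell, where 48.3% of all genes rose and 15.5% fell, in a comparison whose all-gene median depended on the scaling as given above.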

How the data were processed

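Blood RNA of 24 mice was hybridised to single-colour Agilent 4x44K arrays. The authors extracted signals with Agilent Feature Extraction 12.0.2, per the submitters' processing notes, and the deposited intensity is its processed signal, already background-subtracted and detrended within the array but not scaled between arrays. From it, log2 intensity minus the median over non-control spots of each array was computed. Spots flagged non-uniform were set missing, and probes not positive and significant above background in 25% or more of arrays were dropped, as the study's methods state. The probe with the highest mean stood for its gene, leaving 18729 genes, and genes within 1.5-fold of their median in more than 80% of arrays were dropped, leaving 17464. Groups of 6 were compared 2 at a time with limma 3.58.1 (R 4.3.3), and the interaction in 1 fit of 24 arrays. The random variance test of the study's methods was run as an alternative. The deposited table of the whole series holds log2 values in 17190 rows, with 13597 values missing and column medians from 5.77 to 6.73, not centred by gene. How it was normalized between arrays is not given in the sources used here, and it entered only as an alternative. Fits were tested on simulated data with the spread of each gene in each group. Of genes shifted by 1 on the log2 scale, 46% were recovered in the young response, 14% in the old response and 8% in the interaction. For the age differences the share was 75% in unirradiated and 4% in irradiated mice.

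Members and lists were chosen with earlier results of these data known. Full values were given to the members with the greatest young and old changes in each role, and to Lamp1, Cd68, Ctsd, Atp6v1a, Mcoln1 and Tfeb. Of the other lysosome genes, those with the 3 greatest rises and falls in each response were named, except 1 gene that is not reported here. Alternatives covered scaling, background correction, filters, probe choice, slide, replicate number, array weights and left-out mice. Array number limits the precision.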

Additional observations from a re-analysis of the deposited data

Results flagged for a closer look

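The gap between the most extreme mouse and its nearest neighbour was taken as a share of the group's range. In 3 of 160 gene and group combinations, or 1.88%, it passed Dixon's critical value for 6 values. Chance alone passes that value in about 5% of groups. The rule cannot flag 2 mice that lie together at the same end. For Lamp2 the lowest old irradiated mouse, replicate 4, was at 4.89 with the next at 4.90, a share of 0.00323. Atp6v1h was lowest in old irradiated replicate 6, at 0.06 with the next mouse at 1.48, a share of 0.662. Lipa was highest in old unirradiated replicate 2, at 4.76 with the next at 3.97, a share of 0.692. Atp6v0d1 was lowest in young unirradiated replicate 5, at 5.46 with the next at 5.91, a share of 0.737.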

How the results depend on the processing

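Counts below are members that rose or fell, and causes of the shifts were not tested. The share of all genes called is not given here for most of these settings. The young count of 19 became 7 with normexp background correction and 7 with slide as a fixed block. It became 13 in a fit of all 24 arrays, with 0 falling, and 13 in the authors' table. With slide as a random block it became 25, and on adjusted p alone 26. The old count of 2 became 7 with the 75th percentile, 8 with the probes above background, 0 with normexp, 9 in a fit of all 24 arrays, 13 with array weights, 1 with slide as a fixed block, 7 on adjusted p alone, 12 without old irradiated replicates 4 and 6 and 7 without 2, 3 and 5. The age count of 29 in unirradiated mice became 8, 7, 7 and 0 with the 75th percentile, quantile normalization, probes above background and normexp, 15 in the fit of all arrays and 4 in the authors' table. The age count of 1 in irradiated mice became 0 with all of those scalings, with no filters, with the replicate block, with similar arrays averaged and in the authors' table, 2 without the fold filter, with the filter on probes well above background in 6 mice of a group or with the mean of probes, 3 with trend and robust, 4 in the fit of all arrays or with slide as a random block, 13 with array weights and 11 without old irradiated replicates 4 and 6. The interaction count of 0 became 2 with array weights, and 6 without old irradiated replicate 3 (Ctsc, Ctss, Gaa, Gusb, Lamp1 and Naglu, all lower, where 1.48% of all genes were higher and 4.5% lower). Leaving out single mice gave 17 to 21 for the young response, 2 to 4 for the old response, 28 to 30 and 0 to 1 for the age differences and 0 to 6 for the interaction. Sort1 reversed to -1.19 in the young response and to -2.06 with age in the authors' table, and Gaa to -0.24 with age in that table.

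Replicate numbers were not treated as pairs. Same-numbered mice correlated from -0.29 to 0.29 in the young and from -0.20 to 0.33 in the old response. In the age comparison of irradiated mice the range was -0.60 to 0.58. In the young response 1 mouse correlated best with its own number, and in the old response 3 did. These values do not decide whether the numbers pair the mice. With the replicate block the counts were 18, 2, 30, 0 and 0 for the young response, the old response, the age differences unirradiated and irradiated, and the interaction. The random variance test of the methods left all 5 counts as they were.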
